A study of Homo sapiens with 4 samples.

Results

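The perilipins are the coat proteins of lipid droplets, and the 5 genes PLIN1 to PLIN5 were followed here in lipid-loaded Hep G2 cells, an established human hepatocellular line. The members were chosen by name: each symbol matched 1 Ensembl gene ID, so the family made up 5 of the 62655 gene IDs in the count table. The comparison had 2 libraries from cells transfected with an oligonucleotide mimic of LysTTT-5'tRF, a piece cut from the front of a lysine transfer RNA (anticodon TTT), and 2 from cells transfected with a negative control oligonucleotide. In both groups cells were plated at 150000 cells per ml, fed oleic acid-rich medium from 24 h on, transfected with HiPerFect after another 24 h and harvested 24 h after that. Every library therefore came from lipid-loaded cells of 1 cell line, and no unloaded cells are among them, so the effect of loading itself cannot be read from these data. The labels do not say whether the libraries came from separate cultures, and p-values measure only the spread between them, which may be technical. The 2 mimic columns are headed only by an unexplained number and were identified by elimination, so every direction below rests on that assignment.

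Perilipins bind the surface of the droplet's phospholipid layer and decide how much of the stored triglyceride lipases can reach. PLIN2 is the main coat protein of droplets in hepatocytes and is degraded when it is not bound to lipid. PLIN3 is found in most cells and moves from the cytosol to newly forming droplets. PLIN1 and PLIN4 are best known from adipocytes, and PLIN5 from tissues that burn fatty acids, such as heart, where it ties droplets to mitochondria. The series title names perilipin 2 and miR-194-5p, which gives the question asked here of the family. The data used here are mRNA counts, so perilipin protein levels cannot be read from them.

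Poly(A)-selected mRNA was sequenced, and reads assigned to genes numbered from 15430539 to 18961222 per library. Of the genes in the table, 14464 passed the filter on low counts and were tested with edgeR's quasi-likelihood test. The libraries carried hepatocyte mRNAs: all 10 hepatocyte markers were tested, and their summed level was 48584 to 48964 counts per 1000000 reads of the scaled library (CPM) with the mimic and 45881 to 47710 CPM in the control. Adipocyte markers other than perilipins summed to 0.980 to 1.86 CPM with the mimic, against 1.19 to 2.05 CPM in the control. ADIPOQ, LEP and TRARG1 were at 0 in every library, which allows up to 0.160 to 0.196 CPM per library. That limit holds only if reads of these genes could be counted, which was not tested. Muscle markers summed to 6.20 to 7.72 CPM with the mimic, against 6.78 to 8.76 CPM in the control. For macrophage markers the sums were 0.0653 to 0.266 CPM with the mimic, against 0.0595 to 0.0621 CPM in the control. PTPRC, CD163 and ADGRE1 were at 0. The sums rested on few reads: CSF1R had 1 and 2 with the mimic and 1 and 0 in the control. CD68 had 0 and 3 with the mimic and 0 and 1 in the control. The stellate cell list summed to 1871 to 1897 CPM with the mimic, against 1708 to 1727 CPM in the control, nearly all of it RELN, which averaged 1767 CPM. Every library came from 1 cell line, so these lists describe mRNAs of Hep G2 cells and not shares of other cell types. Their relation to the perilipin values was not tested.

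Promoter stretches, taken before the RefSeq start of each gene, are shown to set high and low members of the family side by side. They are the 250 bases before the RefSeq start of the highest member PLIN2 (chr9:19127493-19127742), of PLIN3, the next (chr19:4867668-4867917), and of PLIN1, 1 of the 2 lowest (chr15:89679368-89679617), all on the minus strand of GRCh38.p14 and written 5′ to 3′ in the direction of the gene. Capitals mark each CG pair.
PLIN2: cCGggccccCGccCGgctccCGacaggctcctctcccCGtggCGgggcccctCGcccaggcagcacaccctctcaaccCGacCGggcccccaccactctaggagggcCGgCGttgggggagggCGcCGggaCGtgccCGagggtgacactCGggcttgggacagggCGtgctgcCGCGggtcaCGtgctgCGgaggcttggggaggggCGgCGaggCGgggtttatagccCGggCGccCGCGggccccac
PLIN3: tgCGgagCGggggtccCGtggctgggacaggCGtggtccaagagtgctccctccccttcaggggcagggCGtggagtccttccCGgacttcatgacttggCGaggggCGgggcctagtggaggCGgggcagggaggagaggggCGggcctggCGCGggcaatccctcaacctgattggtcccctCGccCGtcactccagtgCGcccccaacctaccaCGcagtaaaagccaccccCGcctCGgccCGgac
PLIN1: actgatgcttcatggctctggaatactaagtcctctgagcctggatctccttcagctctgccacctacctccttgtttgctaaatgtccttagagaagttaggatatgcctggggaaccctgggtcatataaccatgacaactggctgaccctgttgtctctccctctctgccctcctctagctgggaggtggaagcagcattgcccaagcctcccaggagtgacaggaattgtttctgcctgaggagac
The PLIN2 stretch held 28 CG pairs and was 78.0% G or C, that of PLIN3 held 19 and that of PLIN1 held 0 at 52.4% G or C. PLIN5 had 17 and PLIN4 had 8, so the order of CG pairs was not the order of the mRNA levels below. Among 35114 RefSeq promoters, 84.1% held fewer CG pairs than PLIN2, 65.4% fewer than PLIN3 and 0% fewer than PLIN1. The E-box CACGTG was present in PLIN2 alone of the 5 promoters and in 6.35% of all promoters. The GC box GGGCGG, searched like all non-palindromic motifs on both strands, matched 2 times each in PLIN2, PLIN3 and PLIN5 and not in PLIN1 or PLIN4, against 42.6% of all promoters with at least 1 match. TATAAA matched in PLIN2 alone, there only as its reverse complement TTTATA, and on either strand in 10.7% of all promoters. Close variants of these letters were not searched. CCAAT matched 1 time each in PLIN3, PLIN4 and PLIN5 and in 32.0% of all promoters. AGGTCA, the core site read by nuclear receptors such as the fatty acid sensor PPAR, matched in none of the 5 and in 12.1% of all, and its repeat AGGTCANAGGTCA in none of the 5 and in 0.0171% of all. Matches could overlap, each match of the repeat is also counted for AGGTCA, and no match says only that these letters are absent from this window.

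A second sequence bears on the series title. The microRNA miR-194-5p is printed with its seed, bases 2 to 8, in capitals, and beneath it the stretch of the PLIN2 mRNA that holds the complement of the seed, also in capitals.
miR-194-5p: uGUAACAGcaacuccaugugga
PLIN2 site: ccattgtgttgcctCTGTTACt
The complement CTGTTAC was found 1 time in the 481 bases after the PLIN2 stop codon in the GENCODE transcript PLIN2-201, starting at base 290 after the stop, and in none of the corresponding stretches of PLIN1, PLIN3, PLIN4 and PLIN5, which ran from 854 to 2270 bases. For comparison, 8.43% of 18721 protein-coding genes held it anywhere after the stop codon, and 2.88% of the 11917 genes with at least 481 bases there held it in the first 481. The match is a description of letters. The microRNA itself was not measured here.

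The genes lie in 3 places of GRCh38, all on the minus strand. PLIN1 (ENSG00000166819) is at chr15:89664365-89679427, PLIN2 (ENSG00000147872) at chr9:19108375-19149290, and the other members lie together on chromosome 19. There PLIN4 (ENSG00000167676, chr19:4502180-4518465) and PLIN5 (ENSG00000214456, chr19:4522531-4535224) are direct neighbours with 4065 bases between them, and PLIN3 (ENSG00000105355, chr19:4838341-4867768) follows 303116 bases beyond PLIN5. All 5 are protein-coding. These spans are GENCODE's and take in every annotated transcript, and for 3 of the genes they begin upstream of the RefSeq start used for the promoter stretches. On the minus strand PLIN2 starts at 19149290 in GENCODE and at 19127492 in RefSeq, so the stretch printed for it lies inside the GENCODE span, before the start of its RefSeq gene. The PLIN1 and PLIN3 stretches overlap their GENCODE spans in part, with RefSeq starts at 89679367 and 4867667. In GENCODE 29, PLIN1 and PLIN2 shared no exon base with another gene. Of PLIN3, 17.8% of the exon bases lie opposite the antisense gene ENSG00000267484, and of PLIN4 0.492% lie opposite HDGFL2. Of PLIN5, 21.7% are shared on the same strand with ENSG00000267385, and reads in that part cannot be given to 1 of the 2 genes. ENSG00000267385 had 1 and 3 reads with the mimic and 0 and 3 in the control, and ENSG00000267484 had 0 in every library. The library kit keeps the strand, but it is not given whether the counting used it, so the PLIN3 level is less certain than that of PLIN2.

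**Figure D1:**
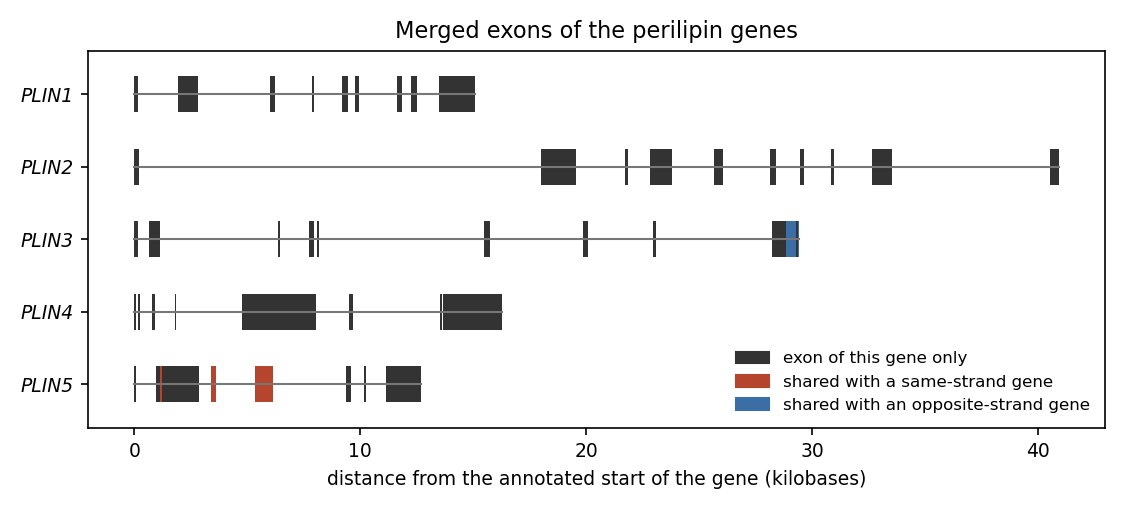
Merged exons (boxes) and introns (lines) of the 5 perilipin genes in GENCODE 29, drawn to scale in kilobases from the annotated start of each gene. Red marks exon bases shared with a gene on the same strand (21.7% of PLIN5) and blue those shared with a gene on the opposite strand (17.8% of PLIN3; the 0.492% of PLIN4 are too narrow to see).

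The coding sequence of PLIN4 is also repetitive. It has 4116 bases and encodes a long chain of similar amphipathic segments. Shifted against itself by 198 bases, it matched at 61.1% of the positions that still overlapped, against 27.3% at a shift 1 base longer. The best shift of the other 4 coding sequences gave 30.4% to 35.2%. Of all 50-base windows of the longest PLIN4 transcript, 4.79% occurred more than once within it. For PLIN5, 18.5% of 50-base windows occurred in a transcript of another gene, against 0.988% for PLIN2, 0.482% for PLIN3 and 0% for PLIN1 and PLIN4. The genes searched include ENSG00000267385, which shares 21.7% of the PLIN5 exon bases at the same place. The PLIN5 value may therefore restate that overlap rather than show likeness to sequence elsewhere. In its default mode HTSeq leaves out reads that align to several places or to 2 genes, and the mode used is not given, so the PLIN4 and PLIN5 levels are also less certain.

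PLIN2 was the most abundant perilipin mRNA in every library. Levels between genes are compared as reads per kilobase of merged exon, again per 1000000 reads (RPKM). In these bulk libraries, fewer cells expressing a gene and less RNA per cell cannot be told apart. PLIN2 stood at 252 and 266 RPKM in the mimic libraries and 259 and 272 RPKM in the control libraries. These values placed it 76th of 14086 tested genes with a known exon length, in the top 0.540%. PLIN3 followed at 48.3 and 48.0 RPKM with the mimic and 48.1 and 49.4 RPKM in the control, rank 692. PLIN2 was thus 5.21 to 5.53 times as high per kilobase of merged exon as PLIN3 in each of the 4 libraries, and the members did not overlap. The factor depended on the gene length used. It was 11.1 to 11.8 with the length of the longest transcript and 9.35 to 9.93 with coding length. Ranks among all genes were taken with merged exons only.

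The other members were far lower. PLIN4 had 1.33 and 1.51 RPKM with the mimic and 1.62 and 1.77 RPKM in the control, rank 10004, and lay 27.9 to 36.4 times below PLIN3. PLIN5 had 0.149 and 0.243 RPKM with the mimic and 0.321 and 0.219 RPKM in the control, rank 13413, and PLIN4 exceeded it 5.04 to 8.89 times. PLIN1 had 0.172 and 0.0421 RPKM with the mimic and 0.0313 and 0.131 RPKM in the control. PLIN5 and PLIN1 overlapped: PLIN5 was 0.867 times PLIN1 in mimic library 1 and 10.3 times PLIN1 in control library 1. The order PLIN2, PLIN3, PLIN4 held in all 4 libraries, whereas the last 2 places did not differ beyond their spread. They were separated, with PLIN5 above PLIN1 in every library, when the length of the longest transcript or the coding length was used in place of merged exons. The factors between the other members moved as well. PLIN3 exceeded PLIN4 33.6 to 43.8 times with the longest transcript and 38.2 to 49.8 times with coding length. PLIN4 exceeded PLIN5 2.59 to 4.57 times with the longest transcript and 2.30 to 4.05 times with coding length.

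**Figure D2:**
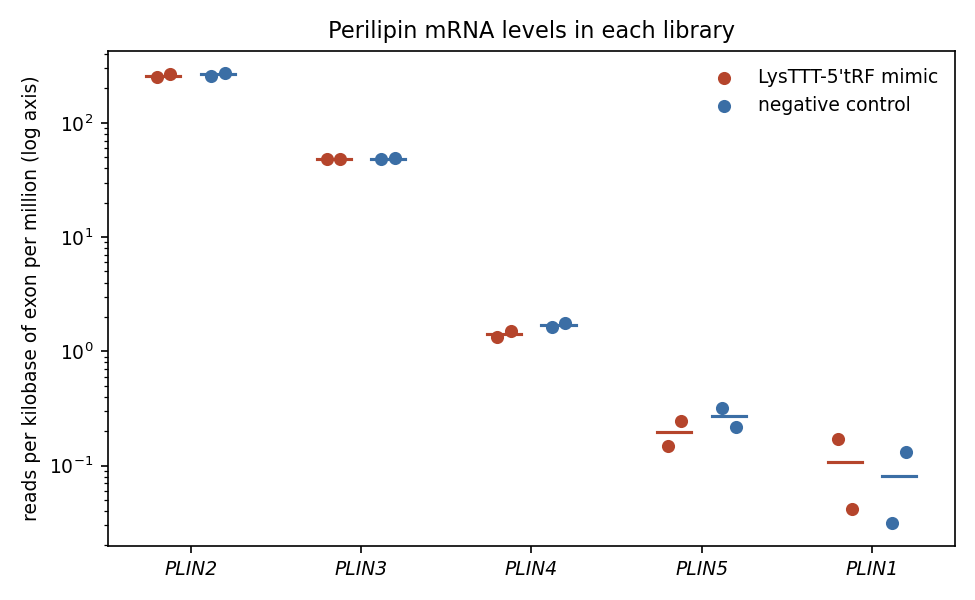
Level of each perilipin mRNA in RPKM on a log axis, with 1 point per library and a bar at the mean of each group of 2, mimic in red to the left of control in blue. PLIN2 sits at 252 to 272 RPKM and PLIN3 at 48.0 to 49.4 RPKM, while PLIN5 (0.149 to 0.321 RPKM) and PLIN1 (0.0313 to 0.172 RPKM) overlap.

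As a share of the summed family level, PLIN2 made up 83.4% and 84.2% with the mimic and 83.8% and 84.1% in the control. PLIN3 made up 16.02% and 15.23% with the mimic and 15.54% and 15.27% in the control. The other 3 genes together held the small remainder, PLIN4 the most of it at 0.440% to 0.546%. Shares depended on the gene length used, since the exons of PLIN2, merged over 8 transcripts of which 4 are protein-coding, span 5086 bases and its longest transcript 1972. PLIN2 held 91.8% of the sum with the length of the longest transcript and 90.4% with coding length.

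Set beside the genes that build and break down droplets, PLIN2 was the most abundant. None of the 44 tested genes of droplet lipases, formation, growth and surface reached its level, and it stood at 3.32 times the highest of them, the late endosomal GTPase RAB7A (78.9 RPKM), ahead of the droplet ubiquitin adaptor AUP1 (74.5 RPKM). Their median was 8.19 RPKM. These levels are per kilobase of merged exon, and other gene lengths were not tried for this comparison. PLIN3 was exceeded by 4 of the 44 and PLIN4 by 41, and all 44 exceeded PLIN5 and PLIN1.

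No perilipin passed the test between mimic and control. Of the 4 members tested edgeR called 0 after Benjamini-Hochberg adjustment over all tested genes at a threshold of 0.05, where it called 0.346% of all. At an unadjusted p under 0.05 there were also 0 of the 4, against 9.43% of all tested genes, and limma voom called 0 as well, as did DESeq2, which gave an adjusted p for PLIN2 and PLIN3 only.

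PLIN2 had 1280 and 1350 CPM after the mimic, against 1320 and 1383 CPM in the control, counted from 19598 to 25366 reads per library. The groups interleaved: mimic library 2 lay above control library 1, and mimic library 1 was the lowest of all. The log2 fold change was -0.04 (SE 0.04; 95% interval -0.12 to 0.05; adjusted p = 0.845 by edgeR). In percent, the interval ran from -8.15% to 3.19%, so larger changes of PLIN2 mRNA in either direction lay outside it. These limits depended on single libraries: on the log2 scale the upper limit was 0.11 without mimic library 1, and the lower limit was -0.19 without mimic library 2. Leaving out control library 2 put the upper limit at 0.08, and leaving out control library 1 put it at 0.02. The difference of the group means on the log2 scale, -0.04, was smaller than the gap between the 2 mimic libraries (0.08) and between the 2 control libraries (0.07).

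PLIN3 was also flat across the libraries. It had 135.9 and 135.1 CPM with the mimic, against 135.3 and 138.9 CPM in the control. Control library 2 stood slightly above the others, 0.04 above control library 1 on the log2 scale. The log2 fold change was -0.02 (95% interval -0.13 to 0.10; adjusted p = 0.966 by edgeR), an interval of -8.75% to 7.04%.

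PLIN4 was the one member whose groups did not overlap. It had 8.62 and 9.85 CPM with the mimic, against 10.5 and 11.5 CPM in the control, from 132 and 185 reads with the mimic and 177 and 185 reads in the control. Both mimic libraries lay below both control libraries, as was the case for 19.3% of all tested genes (both above in 19.8%, no overlap either way in 39.1%). The log2 fold change was -0.24 (SE 0.16; 95% interval -0.57 to 0.09; adjusted p = 0.680 by edgeR), which covers anything from -32.7% to 6.12%. Leaving out 1 library moved it to between -0.35 (without mimic library 2) and -0.16 (without mimic library 1). Of the marker sums given above, those of adipocytes and muscle overlapped between the groups. Those of the hepatocyte and stellate cell lists were higher with the mimic in both libraries. The macrophage sums rested on too few reads to compare. Of the 10 hepatocyte markers 1 was called, albumin (ALB), with a log2 fold change of 0.23 (adjusted p = 0.0109 by edgeR). The part of these differences in the PLIN4 value was not tested.

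PLIN5, which in muscle and liver binds the triglyceride lipase PNPLA2 and its activator ABHD5, was counted from few reads. There were 11 and 22 reads with the mimic and 26 and 17 reads in the control, or 0.718 and 1.17 CPM with the mimic, against 1.55 and 1.06 CPM in the control. The groups overlapped, and mimic library 1 was the lowest. The exact Poisson 95% interval, which covers counting error only, ran from 5.49 to 19.7 for the 11 reads and from 17.0 to 38.1 for the 26 reads. Its log2 fold change was -0.43 (SE 0.46; 95% interval -1.39 to 0.53; adjusted p = 0.849 by edgeR). Changes between -61.8% and 44.1% thus could not be told from none at this depth. Leaving out mimic library 2 moved the value to -0.86, and leaving out control library 1 to -0.12.

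PLIN1, the adipocyte coat protein that keeps ABHD5 away from the lipase, did not pass the filter on low counts and was not tested. It had 10 and 3 reads with the mimic and 2 and 8 reads in the control. The 2 libraries within each group differed more than the groups did, with 13 reads in sum with the mimic and 10 in the control, and a mean of 0.406 ± 0.349 CPM with the mimic, against 0.308 ± 0.267 CPM in the control (SD, n = 2 each). Without a test, these few reads do not decide whether the groups differed.

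**Figure D3:**
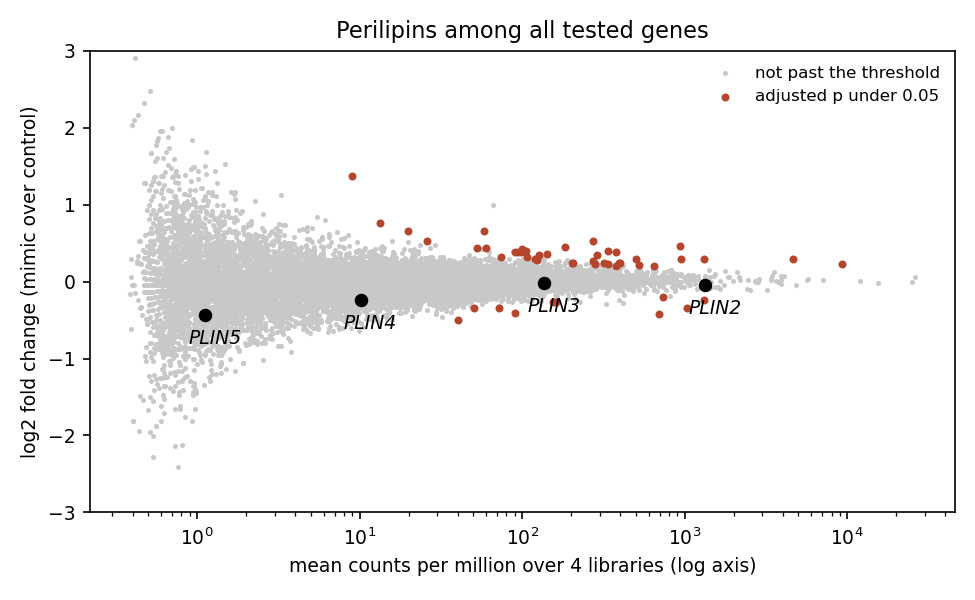
Log2 fold change (mimic over control) against mean CPM on a log axis for the 14464 tested genes, with the 50 called genes in red and the 4 tested perilipins in black. The perilipins lie inside the cloud of genes that were not called, PLIN2 at -0.04 and PLIN3 at -0.02 near its centre line and PLIN4 and PLIN5 where low counts widen the cloud.

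The tested members stood at -0.02 to -0.43, below 0 in each case, although PLIN3 turned to 0.00 (unrounded above 0) without control library 2. Of all tested genes 49.6% lay below 0 and the median was 0.00. Because PLIN1 was not tested, this is not a statement on the whole family. The summed family level was 1426 and 1497 CPM with the mimic, against 1467 and 1535 CPM in the control, values that overlap.

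**Figure D4:**
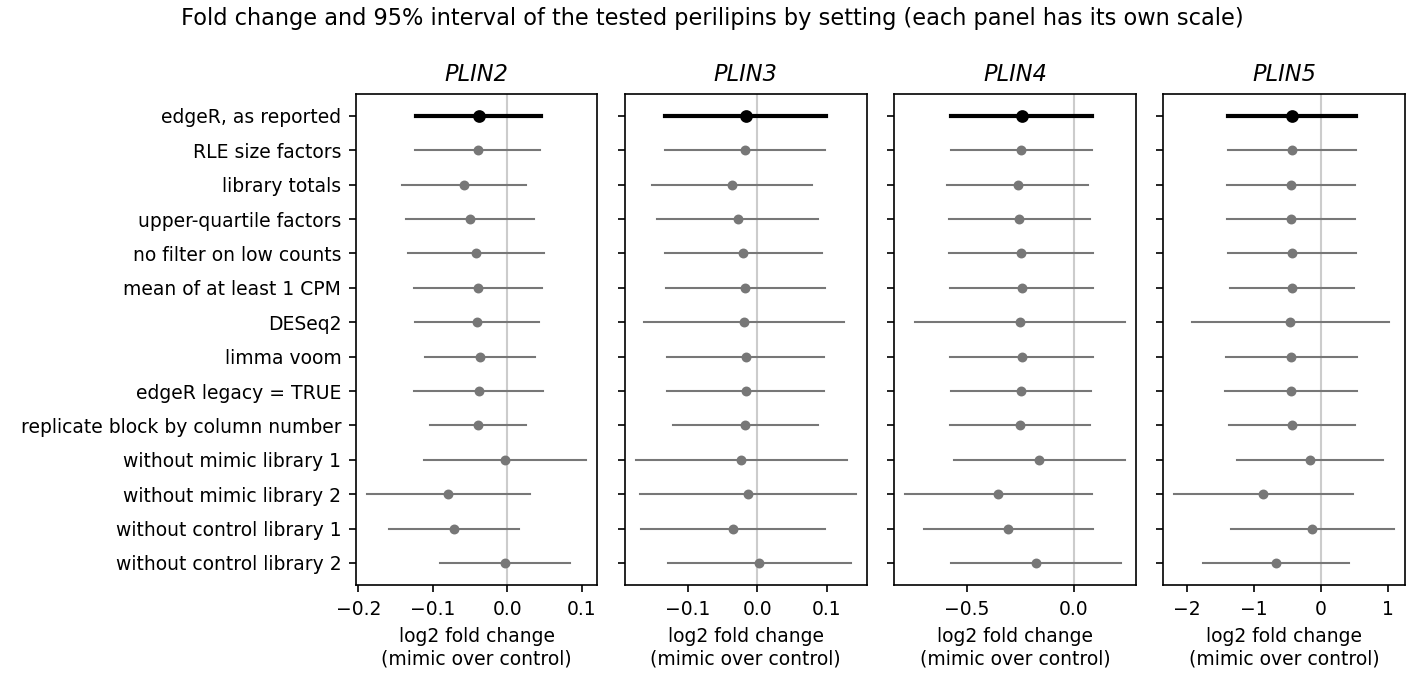
Log2 fold change (mimic over control) with its 95% interval for the 4 tested perilipins under the reported edgeR setting (black) and 13 alternatives (grey). Each panel has its own scale. Every interval includes 0, and the intervals widen from PLIN2, which spans -0.12 to 0.05 as reported, to PLIN5, which spans -1.39 to 0.53.

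The genes around the perilipins were read for the same comparison. Beside PLIN2 lie HAUS6 (5.76 RPKM) and DENND4C (9.36 RPKM), both far below its 262 RPKM mean. PLIN3 at 48.5 RPKM stands between TICAM1 (4.41 RPKM) and ARRDC5, which had 1 read in all 4 libraries. PLIN4 at 1.56 RPKM overlaps HDGFL2 at 16.3 RPKM. PLIN1 overlaps the span of PEX11A (1.77 RPKM), without a shared exon base, and has KIF7 (1.63 RPKM) on its other side. None of these neighbours that were tested passed in the mimic comparison, with log2 fold changes from -0.31 for KIF7 to 0.07 for HDGFL2.

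By shape over the 4 libraries, the genes most like PLIN2 among 10232 others of at least 5 CPM were SEMA7A, LASP1 and COX4I1. Their root-mean-square difference from PLIN2 in centred log2 CPM was 0.00298, 0.00483 and 0.00588, where the median gene had 0.0871. For PLIN3 they were C1QBP, PDHA1 and ACADVL (0.00171, 0.00416 and 0.00459), and for PLIN4 ATP5F1D, ASB13 and BET1L (0.00613, 0.0132 and 0.0151). With 4 libraries and members this flat, likeness describes these libraries only.

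Related genes were followed in 8 lists with 95 genes, of which 83 were tested. Of these, 1 rose with the mimic and 0 fell (0.277% and 0.0691% of all tested genes), and 10 (12.0%) had an unadjusted p under 0.05, close to the 9.43% of all tested genes. The median log2 fold change was 0.01, with quartiles of -0.06 and 0.07, against -0.11 and 0.09 for all tested genes.

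The gene that rose was NCEH1, which cleaves cholesteryl esters, the other neutral lipid that perilipin-coated droplets store. It had 143.0 and 140.5 CPM with the mimic, against 118.1 and 104.8 CPM in the control. Its groups thus did not overlap, with the mimic higher, as was the case for 19.8% of all tested genes. Its log2 fold change was 0.35 (SE 0.06; 95% interval 0.22 to 0.47; adjusted p = 0.0103 by edgeR). The call was lost without control library 2 (log2 fold change 0.26, adjusted p = 0.0696 by edgeR) and where low counts were not filtered (log2 fold change 0.34, adjusted p = 0.754 by edgeR), a setting in which 0 genes of the whole table were called and 1514 had an unadjusted p under 0.05. NCEH1 was on its list with its value already known.

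The other 7 tested lipase genes and regulators did not pass. PNPLA3, a remodeller of droplet lipids, was at -0.15 on the log2 scale. PNPLA2, the main triglyceride lipase of the droplet, named here for its known partnership with PLIN5, had 89.4 and 89.7 CPM with the mimic, against 95.4 and 82.8 CPM in the control (log2 fold change 0.01, 95% interval -0.14 to 0.15). G0S2, an inhibitor of PNPLA2, and LIPE, the hormone-sensitive lipase that PLIN1 docks, were listed at 0 in every library. An exact 0 in this table can also mean that reads were not counted to a gene, for example where it overlaps another, and which of these holds was not tested. None of the 12 genes of droplet formation passed, among them the phosphatidate phosphatase LPIN2 (0.14), the acyltransferase AGPAT2 (-0.22) and the fatty acyl-CoA synthetase ACSL3 (-0.01), the most abundant of them at 34.8 RPKM. The 10 tested genes of droplet growth and contacts likewise held no call, with RAB7A at 0.07 and RAB18, a GTPase of the droplet surface, at 0.09. CIDEB, a droplet fusion protein of hepatocytes, was listed at 0 as well, which for the same reason does not show that it was not expressed.

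Of 14 other droplet surface proteins 0 passed. The lysophosphatidylcholine acyltransferase LPCAT1 stood at -0.20 with a 95% interval from -0.34 to -0.06, METTL7A (TMT1A), a methyltransferase of the droplet and endoplasmic reticulum, at 0.17, and AUP1 at 0.02.

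Genes that act on perilipin proteins after translation did not pass either (0 of 8). LAMP2, which includes the lysosomal receptor through which PLIN2 and PLIN3 are taken up for degradation, had 304.8 and 299.6 CPM with the mimic, against 263.9 and 266.6 CPM in the control. The groups did not overlap, with the mimic higher, as was the case for 19.8% of all tested genes. The log2 fold change of LAMP2 was 0.19 (95% interval 0.09 to 0.29; adjusted p = 0.101 by edgeR). HSPA8, the chaperone that hands perilipins to that receptor, was at 0.08 with 1147 and 1109 CPM with the mimic, against 1097 and 1042 CPM in the control. Of the 4 tested sorting partners of PLIN3 0 passed, with the mannose 6-phosphate receptors M6PR at 0.14 and IGF2R at 0.06 and the GTPase RAB9A at 0.22.

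The fatty acid receptors that act on PLIN2 transcription did not pass, nor did their partners and cofactors (0 of 9). PPARG had 47.5 and 47.2 CPM with the mimic, against 55.5 and 53.0 CPM in the control, for a log2 fold change of -0.20 (95% interval -0.35 to -0.04; adjusted p = 0.400 by edgeR). Its partner RXRB was at -0.22 and the corepressor NCOR1 at 0.06. Of 18 other PPAR target genes 0 passed. CPT1A, which admits fatty acids to mitochondria, was at 0.19, the transcription factor CREB3L3 at 0.21, and the fatty acid binding protein FABP1, the most abundant at 163 RPKM, at 0.04.

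**Figure D5:**
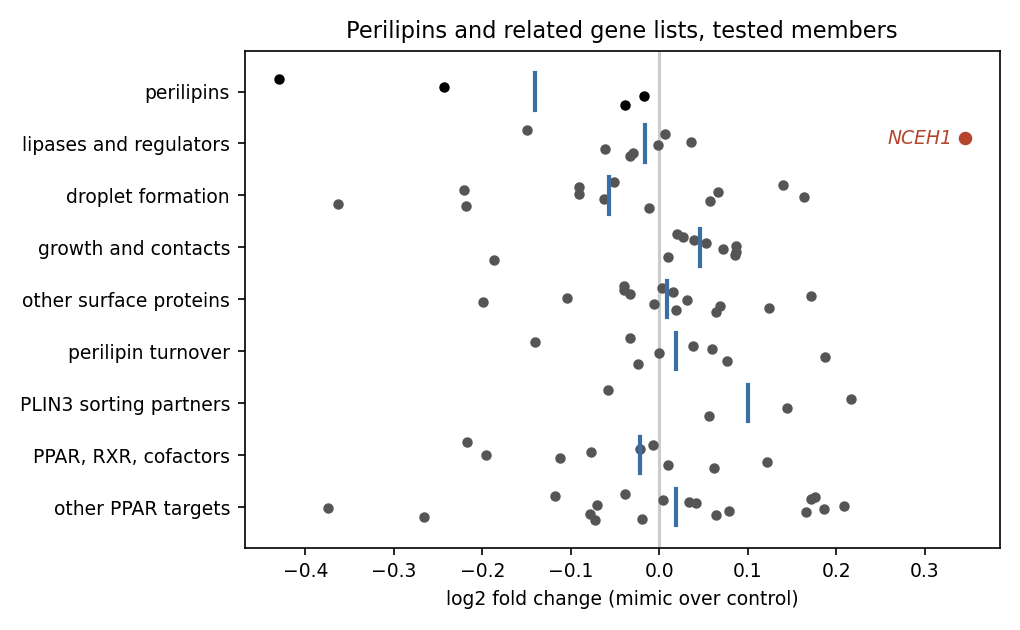
Log2 fold change (mimic over control) of each tested gene in the perilipin family and the 8 related lists, with a blue line at each list's median. The single called gene, NCEH1 at 0.35, is in red, and PLIN2 and PLIN3 lie within 0.04 of 0.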

How the data were processed

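The authors deposited whole-number counts per Ensembl gene that they had not normalized. The tools, per the submitters' processing notes, were STAR, HTSeq, Bowtie2 and FastQC, and the build GRCh38.p14. Tool versions, gene annotation and HTSeq's strand setting were not given in the sources used here. The 5 summary entries of the table, 23.1% to 24.1% of each library's total, name no gene and were left out. Control columns carry the series' abbreviation for negative control. Mimic columns carry an unexplained number and were assigned by elimination; if that were wrong, directions would have no meaning. Library numbers are those of the columns, while the titles number the controls 3 and 4.

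Counts were analysed in R 4.3.3 with edgeR 4.0.16: filterByExpr (minimum count 10, minimum total 15), TMM factors, glmQLFit with legacy = FALSE, glmQLFTest, and Benjamini-Hochberg adjustment over 14464 genes at 0.05. Intervals came from the standard error and the test's degrees of freedom. The step was tested on simulated data. Exon lengths came from GENCODE 29 (GRCh38), promoters and microRNAs from RefSeq tables of GRCh38.p14, where all 5 members matched. Alternatives were other scalings and filters, DESeq2 1.42.0, limma 3.58.1 voom, a block, other gene lengths, and each library left out. Named genes of each list were the 2 with the smallest p, the most abundant and any called. The members and lists were chosen with earlier results of these data known.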

Additional observations from a re-analysis of the deposited data

How the results depend on the processing

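The count of perilipins called was 0 under all 13 alternatives, and the adjusted p-values that edgeR, limma or DESeq2 gave ranged from 0.513 to 0.999 for PLIN2, 0.892 to 0.996 for PLIN3, 0.544 to 0.976 for PLIN4 and 0.754 to 0.991 for PLIN5 (DESeq2 gave PLIN4 and PLIN5 none). Their log2 fold changes ran from -0.08 to 0.00, -0.04 to 0.00, -0.35 to -0.16 and -0.86 to -0.12. The untested PLIN1 ratio was 0.40 on the log2 scale and ran from -0.95 to 1.77 with 1 library left out, so its direction rests on single libraries. The PLIN2 share of 83.9% became 91.8% with the longest transcript, 90.4% with coding length and, an alternative chosen after seeing the data, 81.1% with shared exon bases left out, all by their construction. These 3 lengths, and leaving out mimic library 1, separated all 4 neighbouring pairs of the order, as against 3. Calls in the related lists numbered 1 as reported, 0 with no filter, 3 with a replicate block by column number (NCEH1, LPCAT1, LAMP2) and 1 to 6 with 1 library left out, the 6 without control library 1; the cause was not tested. Without control library 2 the 1 call was IGF2R, not NCEH1. The titles share no replicate numbers, so the block has no support in the labels; over all genes it called 306 in place of 50. With no filter 0 genes were called by edgeR (1514 at an unadjusted p under 0.05), and with 1 library left out 20 to 424, the lone library of its group being assumed to vary like the other group. Depth limits PLIN1 and PLIN5, which had 23 and 76 reads over all libraries.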
